A study of Rattus norvegicus with 12 samples.

Results

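The genes Gad1, Gad2 and Abat encode the enzymes that make and break down GABA, the main inhibitory transmitter of the striatum. They were chosen by symbol, with earlier results of these data known. They are 3 of the 9218 genes that the array table names, each read by 1 of its 13375 probes. The series holds 12 Illumina arrays of rat striatum with a single colour, each read for 1 sample, and the RNA was collected on day 8 after chronic treatment. The 6 samples called LID came from parkinsonian rats that were given levodopa over a chronic course (its methyl ester at 25 mg/kg, with 6.25 mg/kg of benserazide, which keeps levodopa from being decarboxylated outside the brain) and became dyskinetic. The 6 samples called PD control came from parkinsonian rats without levodopa, so all 12 samples share the parkinsonian state. The sources used here do not give how that state was produced, nor the strain, sex, age or hemisphere. No group received levodopa without dyskinesia, so the drugs and the involuntary movements cannot be told apart. Nothing states that each sample came from a separate animal, and p-values therefore measure the spread between these samples.

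Glutamate decarboxylase turns glutamate into GABA in a single step and exists in 2 forms from separate genes. Gad1 encodes GAD67, which is found throughout the neuron and makes most of its GABA, and Gad2 encodes GAD65, which is enriched at nerve endings and attached to synaptic vesicles. Abat encodes GABA transaminase, a mitochondrial enzyme of neurons and astrocytes that converts GABA to succinic semialdehyde, the first step of the route called the GABA shunt. All 3 enzymes use pyridoxal phosphate, the active form of vitamin B6, as cofactor. Nearly all striatal neurons are GABAergic, both the projection neurons of the direct and indirect pathways and most interneurons, so both Gad genes are general markers of striatal neurons.

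The bases just before the first annotated start of Gad1 and of Gad2 are shown because these genes encode the same reaction from separate promoters and were both higher in LID. Of the 3 genes, 2 matched the promoter table of RefSeq, build GRCr8, and Abat was not among them. Both stretches are on the plus strand, chr3:75777202-75777259 for Gad1 and chr17:89671660-89671717 for Gad2, each of 58 bases, and capitals mark a TATA box.
Gad1: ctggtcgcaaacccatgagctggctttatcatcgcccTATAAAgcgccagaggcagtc
Gad2: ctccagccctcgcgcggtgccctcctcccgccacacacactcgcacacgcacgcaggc
The letters TATAAA began 21 bases before the first annotated start of Gad1. They were not in the Gad2 stretch on either strand. Of 33469 promoters in the table, 3.58% held them in the 58 bases before the start that the table used. For Gad1 the table used a start after the first annotated one, so the shares given here are for an unlike position. The cAMP response element TGACGTCA, its 5-base part TGACG, the GC box GGGCGG, the E-box CACGTG and the homeodomain core TAATTA were searched on both strands and had 0 matches in either stretch. In the 58 bases before the table's start the shares over all promoters were 0.657%, 6.36%, 14.5%, 1.65% and 0.792% in that order. TGACG lies inside TGACGTCA.

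Values are given as normalised log2 intensities, in which a step of 1 is a doubling. The number of arrays limits the precision. Of all probes, 12.0% passed the threshold between LID and PD control (limma, Benjamini-Hochberg adjusted p under 0.05 over all probes), 6.47% higher and 5.54% lower in LID. All LID arrays lay above all PD control arrays at 3.34% of probes, and the groups did not overlap in either direction at 6.12%. Of 24 listed genes of striatal projection neurons 21 were measured, that is, had a probe, which is no check of the labelled tissue. DARPP-32 (Ppp1r1b) and enkephalin (Penk), named after their values were seen, had PD control means of 13.13 and 13.92. PD control replicates 1, 3 and 6 stood apart from the others in markers of projection neurons. Their projection neuron scores (the mean of the markers, each standardised over the 12 arrays) were -1.21, -1.12 and -0.95, while the remaining PD control arrays scored -0.23 to 0.57 and LID -0.03 to 0.94. The differences of the 3 enzyme genes and of the pathway genes past the threshold are therefore given with and without these 3 arrays. In other markers these 3 arrays were not alike. Scores made the same way from choroid plexus and cortical markers were 1.92 and -0.55 in replicate 1. They were -0.81 and 1.32 in replicate 3, and -0.78 and 0.95 in replicate 6. In striatal tissue, fewer cells of a type and less RNA per cell cannot be told apart.

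Gad1, the gene of the soluble enzyme GAD67, was 1.29-fold higher in LID. Its log2 value was 12.94 at the lowest, 13.12 at the median and 13.31 at the highest in PD control. In LID the same readings were 13.31, 13.49 and 13.71. The groups met without crossing, since LID replicate 1 and PD control replicate 4 had the same value (a deposited intensity of 10136) and the other 5 LID arrays lay above all PD control arrays. Within PD control the arrays fell in 2 sets, with replicates 1, 3 and 6 between 12.94 and 13.00 and replicates 2, 4 and 5 between 13.24 and 13.31. The mean was 13.13 ± 0.17 (SD, n = 6) in PD control and 13.49 ± 0.15 (n = 6) in LID. The log2 difference of 0.37 ± 0.09 (SE, 95% interval 0.18 to 0.55) passed the threshold (limma adjusted p = 0.0139). Without PD control replicates 1, 3 and 6 it was 0.21 ± 0.08 and did not pass (limma adjusted p = 0.15). The Gad1 probe was bright, with deposited intensities from 7843 to 13412 where the highest value of any probe was 22793.

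Gad2, the gene of the vesicle-associated enzyme GAD65, had the largest difference of the 3 and was 1.40-fold higher in LID. Its log2 value was 8.29, 8.74 and 9.06 (lowest, median and highest) in PD control and rose to 9.10, 9.26 and 9.33 in LID. All LID arrays were above all PD control arrays, the closest being LID replicate 3 at 9.10 and PD control replicate 4 at 9.06. PD control replicate 6 was the lowest of all arrays at 8.29, and the next was replicate 3 at 8.64. The mean was 8.74 ± 0.28 (SD, n = 6) in PD control and 9.23 ± 0.10 (n = 6) in LID, and whether the spreads differ was not tested. The log2 difference was 0.49 ± 0.11 (SE, 95% interval 0.25 to 0.72, limma adjusted p = 0.0106), and by size it ranked 290 of 13375 probes. It was 0.31 ± 0.08 without the 3 arrays that stood apart, just inside the threshold (limma adjusted p = 0.0488).

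Abat, whose product breaks GABA down, was 1.31-fold higher in LID, so the gene of the degrading enzyme moved the same way as those of the synthesising enzymes. Its log2 value was 8.38, 8.74 and 8.90 at the lowest, median and highest in PD control. In LID it was 8.93, 9.06 and 9.16. The groups did not overlap, although LID replicate 1 at 8.93 was close to PD control replicate 5 at 8.90. PD control replicates 3 and 6 were the lowest at 8.38 and 8.44, while replicate 1, which was low for Gad1, was at 8.78 and near the middle of its group. The mean was 8.67 ± 0.21 (SD, n = 6) in PD control and 9.06 ± 0.08 (n = 6) in LID. The log2 difference was 0.39 ± 0.08 (SE, 95% interval 0.21 to 0.57, limma adjusted p = 0.00971), and it was 0.25 ± 0.06 without the 3 arrays (limma adjusted p = 0.0343). All 3 genes were past the threshold with all arrays, against 12.0% of all probes. Of the 3, 2 passed without PD control replicates 1, 3 and 6, against 7.92% of all probes. The 3 genes were chosen with earlier results of these data known, so these shares are a description only.

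**Figure D1:**
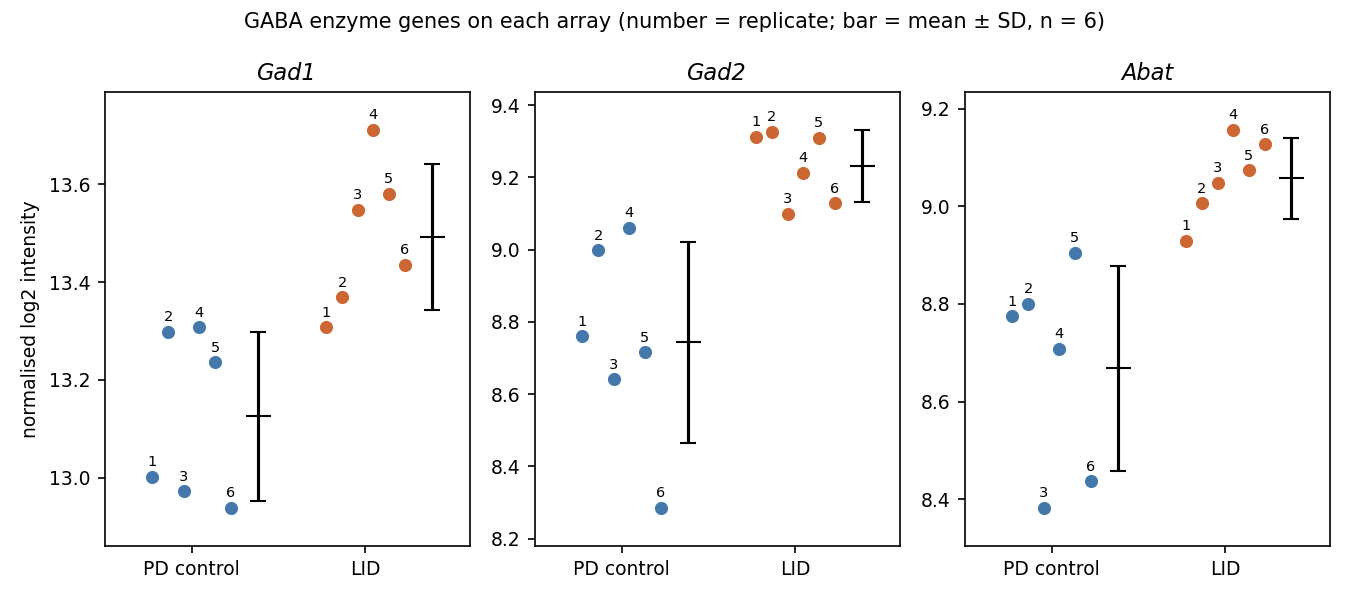
Normalised log2 intensity (vertical axes) of Gad1, Gad2 and Abat on each of the 6 PD control and 6 LID arrays, with points numbered by replicate and bars for the mean and SD. LID lies above PD control without overlap for Gad2 and Abat and touches it at 13.31 for Gad1, and PD control replicates 1, 3 and 6 are the lowest for Gad1.

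The sizes of the 3 changes could not be told apart at this number of arrays. The log2 ratio of each pair of genes on the same array was compared between the groups with an exact two-sided permutation test, adjusted over 3 comparisons. Gad2 changed by 0.12 more than Gad1 (95% interval -0.12 to 0.36, exact permutation p = 0.279, adjusted 0.588). Gad2 changed by 0.10 more than Abat (95% interval -0.15 to 0.35, exact permutation p = 0.392, adjusted 0.588). The change of Gad1 minus that of Abat was -0.02 (95% interval -0.18 to 0.14, exact permutation p = 0.773, adjusted 0.773). The intervals still allow an unequal change of up to 0.36 on the log2 scale between the Gad genes.

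Among the arrays of 1 group the members did not all vary together, and no correlation passed the threshold after adjustment over 6 relations. In PD control Gad1 and Gad2 had a Pearson r of 0.82 (exact permutation p = 0.0139, adjusted 0.0833) and a Spearman rho of 0.94 (exact permutation p = 0.0167, adjusted 0.1), n = 6. Without the 2 arrays farthest from the median of Gad1 the r was 0.72. In LID the same pair had an r of -0.34 (exact permutation p = 0.483, adjusted 0.483) and a rho of -0.49 (exact permutation p = 0.356, adjusted 0.419), and the r was -0.20 without the 2 farthest arrays. LID replicates 1 and 2 had the lowest Gad1 values of their group and 2 of the 3 highest Gad2 values. Gad1 and Abat had an r of 0.79 in LID (exact permutation p = 0.0653, adjusted 0.196; rho 0.83, exact permutation p = 0.0583, adjusted 0.175), which fell to 0.23 without the 2 farthest arrays, so it rests on LID replicates 1 and 4 of that group. In PD control that pair had an r of 0.72 (exact permutation p = 0.167, adjusted 0.327; rho 0.54, exact permutation p = 0.297, adjusted 0.419), or 0.70 without the 2 farthest arrays. Gad2 and Abat had an r of 0.60 in PD control (exact permutation p = 0.218, adjusted 0.327; rho 0.43, exact permutation p = 0.419, adjusted 0.419), or 0.48 without the 2 farthest arrays. In LID the r of that pair was -0.53 (exact permutation p = 0.283, adjusted 0.34; rho -0.54, exact permutation p = 0.297, adjusted 0.419), or -0.79 without them. Whether a correlation differed between the groups was not tested.

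**Figure D2:**
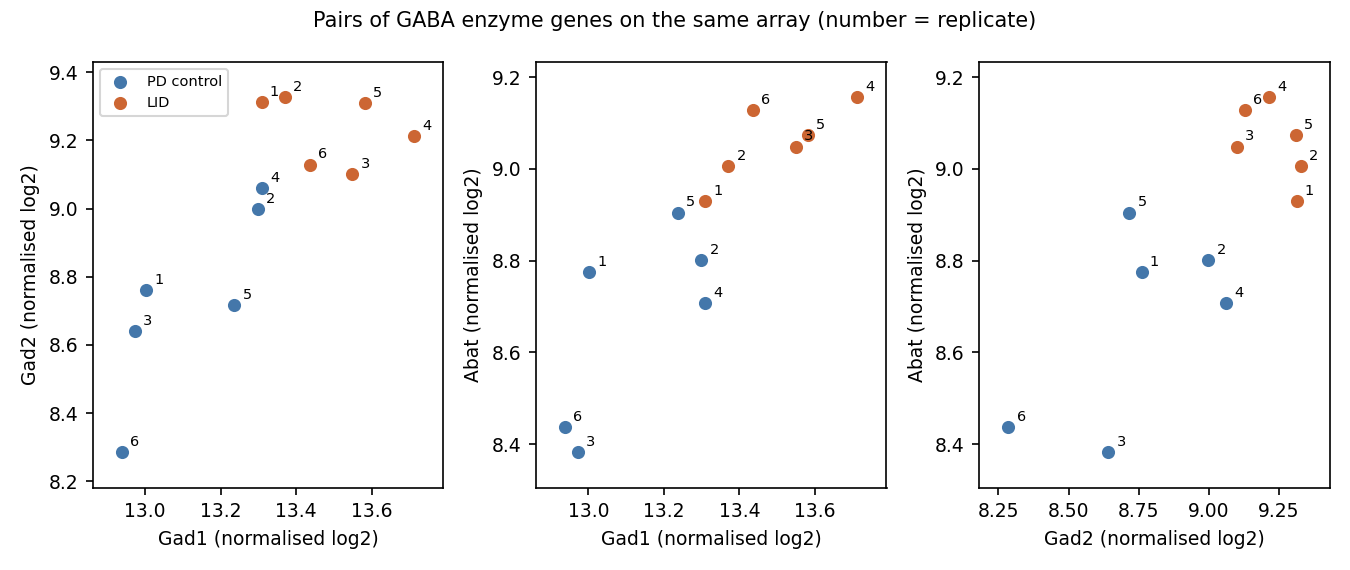
Normalised log2 intensity of each pair of the 3 genes on the same array (horizontal and vertical axes), with points numbered by replicate and coloured by group. PD control replicates 3 and 6 lie at the lower left of each panel, and within LID the points of Gad2 do not rise with those of Gad1 (r = -0.34).

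Markers of the cells that carry these enzymes were read on the same arrays. Of the 21 measured genes of striatal projection neurons 8 were higher in LID and none was lower, against 6.47% and 5.54% of all probes. The median log2 difference of these genes was 0.17 against -0.004 over all probes. Their summed deposited intensity ran from 51122 to 75439 in PD control and from 63027 to 79206 in LID. The 3 arrays with the lowest projection neuron scores were the 3 with the lowest Gad1 values. With this score as a covariate the log2 difference of Gad1 was 0.19 ± 0.08 (limma adjusted p = 0.222), that of Gad2 0.39 ± 0.14 (adjusted p = 0.133) and that of Abat 0.21 ± 0.08 (adjusted p = 0.165). None of the 3 passed in that fit, in which 4.73% of all probes passed. The score holds genes that changed between the groups, among them Pdyn (1.90 ± 0.14) and Tac1 (1.25 ± 0.17), the precursors of dynorphin and substance P, so group and score cannot be told apart fully.

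For each count of markers below, the share of all probes past the threshold in either direction was 12.0%. Of 14 measured interneuron markers 1 was higher and 1 lower. Their summed intensity was 9191 to 15988 in PD control and 11739 to 14437 in LID. The higher one was Tac3, the neurokinin B precursor gene (0.83 ± 0.16, limma adjusted p = 0.0053), and the lower one Lhx6, a homeobox gene of interneurons (-0.27 ± 0.07, adjusted p = 0.0259). Pvalb (-0.28), Sst (-0.02) and Npy (0.14), which mark the main GABAergic interneuron classes, did not pass. Of 12 astrocyte markers, from cells that also hold GABA transaminase, 5 were higher and none lower, and their sum was 31623 to 37570 in PD control and 34805 to 42150 in LID. Of 12 cortical excitatory markers 1 was higher and 1 lower, with sums of 5063 to 6926 in PD control and 6229 to 7882 in LID. The brightest of the 12 was Lamp5 (mean log2 12.30 and 12.48). The list's median log2 difference was -0.11 and its mean score was 0.17 in PD control and -0.17 in LID, so the sum and the score differed in direction. Choroid plexus and ependymal markers had 0 of 13 past the threshold, with sums of 828 to 25788 and 1178 to 17476, and diencephalic and pallidal markers had 0 of 13, with sums of 1222 to 5645 and 1585 to 2939. With the cortical and choroid plexus scores as covariates Gad1, Gad2 and Abat differed by 0.33, 0.43 and 0.32 and all passed (limma adjusted p = 0.0162, 0.0138 and 0.00761). In that fit 1987 of 13375 probes passed, against 1606 without covariates. No value in the table was 0. Of 13 oligodendrocyte markers 3 were lower and none higher (Opalin -0.75, Tspan2 -0.52 and Cnp -0.45), with sums of 19240 to 31072 in PD control and 19850 to 28312 in LID. Of 8 endothelial markers 2 were higher and 1 lower, with sums of 2447 to 3226 and 2388 to 2868. Of 10 microglial markers 1 was lower, with sums of 3313 to 4737 and 3348 to 4362. The part of the interneuron, astrocyte, oligodendrocyte, endothelial and microglial markers in the results was not tested.

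**Figure D3:**
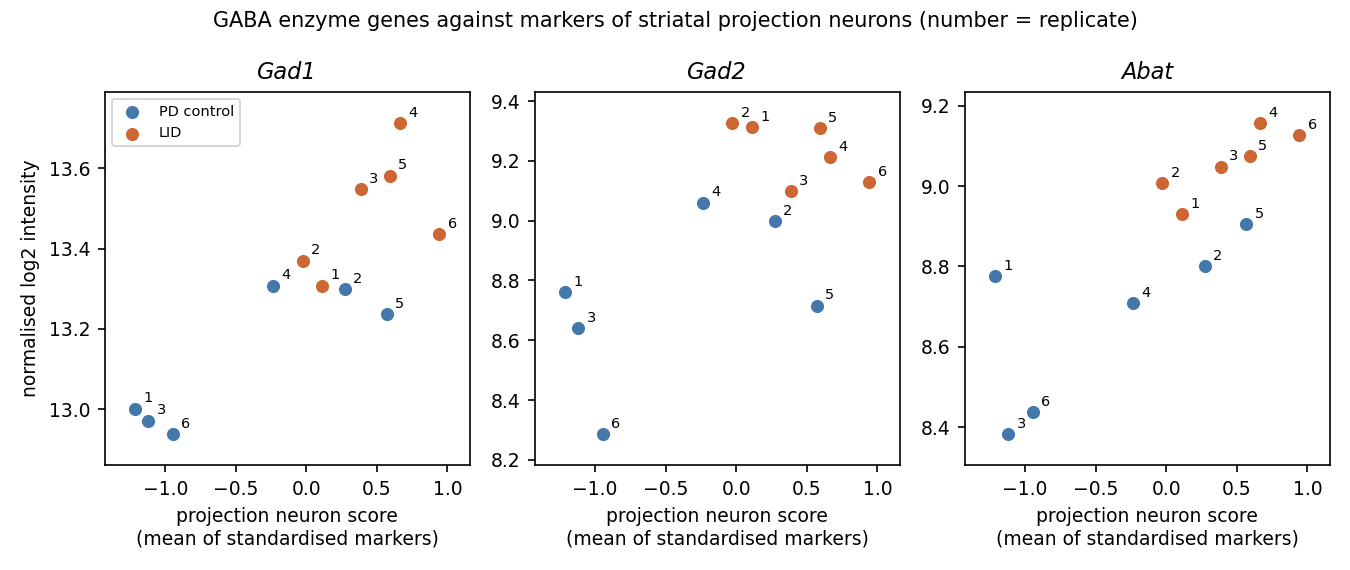
Normalised log2 intensity of Gad1, Gad2 and Abat (vertical axes) against the projection neuron score of the same array (horizontal axes, in SD units), with points numbered by replicate and coloured by group. PD control replicates 1, 3 and 6 lie at scores of -1.21 to -0.95 with the lowest Gad1 values, and PD control replicate 5 has a score of 0.57 with Gad2 at 8.72.

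Genes around the 3 enzymes were read from lists of the pathway. Of 74 further genes 46 were measured, of which 8 rose, 2 fell and 36 did not pass. Those past the threshold were 21.7% of the 46, against 12.0% of all probes, and the median log2 difference of the 46 was 0.01. Of all 9218 named genes, each read by 1 probe, 688 rose and 556 fell. The lists were chosen with earlier results of these data known, so these shares are a description only. The groups did not overlap for 5 of the 46, where 6.12% of all probes did not overlap. Without PD control replicates 1, 3 and 6 the number past the threshold was 5 of the 46, where 7.92% of all probes passed. Of these, only Slc38a2, Slc1a2 and Dnajc5 had also passed with all arrays. The number was also 5 without LID replicate 3, without LID replicate 4 or without LID replicate 5. In these fits 1160, 1112 and 1147 of 13375 probes passed, in that order. For each list below, the share of all probes past the threshold with all arrays was 12.0%.

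The cofactor list had the largest change of these genes. Pdxk encodes pyridoxal kinase, which makes the active form of vitamin B6 that both decarboxylases and the transaminase need. Its log2 value was 7.12, 8.11 and 8.56 at the lowest, median and highest in PD control, while LID gave 8.58, 8.93 and 9.85. The groups did not overlap, though LID replicate 4 at 8.58 lay next to PD control replicate 5 at 8.56. LID exceeded PD control 1.99-fold (0.99 ± 0.24 on the log2 scale, SE, limma adjusted p = 0.0176), or 0.74 ± 0.25 without the 3 arrays, where it did not pass (adjusted p = 0.0959). Alpl, which encodes a phosphatase that removes the phosphate of the cofactor, differed by -0.02 ± 0.05 and did not pass.

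Of 16 measured genes of the shunt and of glutamate supply 3 rose and none fell, with a median of 0.05. Aldh5a1 encodes succinic semialdehyde dehydrogenase, the step after GABA transaminase. It was 1.24-fold higher at the edge of the threshold (0.31 ± 0.09, limma adjusted p = 0.0499), a call kept in only 2 of the 12 fits that left out 1 array, those without PD control replicate 2 or 3. Without PD control replicates 1, 3 and 6 it was at 0.19 ± 0.06 and did not pass (adjusted p = 0.0945). Slc38a2 encodes a neutral amino acid transporter that carries glutamine. Its log2 value was 11.09 to 11.26 in PD control and 11.41 to 11.75 in LID, without overlap, and it rose by 0.41 ± 0.06 (limma adjusted p = 0.000762). Without PD control replicates 1, 3 and 6 it differed by 0.43 ± 0.08 (adjusted p = 0.00979). Slc1a2 encodes the main astrocytic glutamate transporter, and it rose by 0.34 ± 0.07 (limma adjusted p = 0.00508), with 8.20 to 8.33 in PD control and 8.34 to 8.82 in LID. It was at 0.33 ± 0.09 without the 3 arrays (adjusted p = 0.0462). The neuronal and astrocytic glutamine transporter genes Slc38a1 and Slc38a3 (-0.19 ± 0.13 and 0.20 ± 0.09) did not pass, nor did Glud1, the glutamate dehydrogenase gene (-0.03 ± 0.06). Got1 and Got2, the cytosolic and mitochondrial aspartate aminotransferase genes (0.11 ± 0.04 and -0.06 ± 0.05), and Ogdh, of the citric acid cycle step that the shunt bypasses (0.10 ± 0.05), did not pass either. Gls2, a glutaminase gene, differed by -0.12 ± 0.09.

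Storage and uptake of GABA could be read only in part. The vesicular transporter gene Slc32a1 was not analysed here. None of the 3 measured transporter genes passed: the GABA uptake genes Slc6a11 (-0.02 ± 0.08) and Slc6a13 (0.11 ± 0.06) and the taurine transporter gene Slc6a6 (-0.10 ± 0.08). Among genes of vesicle proteins, Dnajc5, which encodes the cysteine string protein, a chaperone of synaptic vesicles, rose by 0.35 ± 0.06 (limma adjusted p = 0.00301). It read 7.39 to 7.59 in PD control and 7.70 to 8.03 in LID, without overlap, while the vesicle GTPase gene Rab3a differed by 0.001 ± 0.098. Dnajc5 was at 0.28 ± 0.07 without the 3 arrays (adjusted p = 0.0436).

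The putrescine route, a minor source of GABA that bypasses glutamate decarboxylase, had 1 of 6 measured genes lower and none higher (median -0.07). Sat1, which encodes a polyamine acetyltransferase, fell by 0.30 on the log2 scale (SE 0.07, limma adjusted p = 0.0164), with 10.13 to 10.39 in PD control and 9.69 to 10.11 in LID. Without PD control replicates 1, 3 and 6 its value was -0.34 ± 0.09, short of the threshold (adjusted p = 0.0539). Odc1, which encodes the enzyme that makes putrescine, differed by 0.24 ± 0.07 and just missed the threshold (limma adjusted p = 0.052). Maob, the monoamine oxidase B gene, and Aldh1a1, an aldehyde dehydrogenase gene, differed by -0.12 ± 0.08 and -0.23 ± 0.11 and did not pass.

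Receptor genes moved in both directions. Of 12 measured, 2 rose, 1 fell and 9 did not pass, with a median of -0.06. Gabrd, the delta subunit of extrasynaptic GABA-A receptors, fell by 0.36 on the log2 scale (SE 0.10, limma adjusted p = 0.039), a call kept in 4 of 12 fits without 1 array (PD control replicate 3 or 4, LID replicate 1 or 6). Gabbr1, a subunit of the metabotropic GABA-B receptor, rose by 0.26 ± 0.07 (limma adjusted p = 0.0357), kept in 4 of 12 such fits (PD control replicate 1 or 4, LID replicate 1 or 2). Its partner gene Gabbr2 differed by -0.22 ± 0.27 and did not pass. Gphn, which encodes the receptor scaffold gephyrin, rose by 0.22 ± 0.07 (limma adjusted p = 0.0486), kept in 3 of 12 such fits (PD control replicate 5, LID replicate 1 or 2). Without PD control replicates 1, 3 and 6 these 3 genes were at -0.31, 0.25 and 0.14 and none passed. Gabra4 (0.27 ± 0.10), Gabra5 (-0.43 ± 0.25) and Gabrb1 (-0.26 ± 0.11), subunits of GABA-A receptors, did not pass.

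Of 5 measured genes of transcription factors in GABAergic neurons 1 rose. Dlx5, a homeobox gene of the developing and adult GABAergic forebrain, rose by 0.36 ± 0.10 (limma adjusted p = 0.0282), kept in 5 of 12 fits without 1 array (PD control replicate 2, 4 or 5, LID replicate 1 or 2). It was at 8.96 to 9.04 in PD control replicates 1, 3 and 6 and at 9.38 to 9.53 in replicates 2, 4 and 5, the same split as Gad1. Without the first set the difference was 0.15 ± 0.07 (adjusted p = 0.222). Dlx1 differed by 0.06 ± 0.15 and the activity-regulated gene Egr1 by 0.37 ± 0.20, and neither passed.

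**Figure D4:**
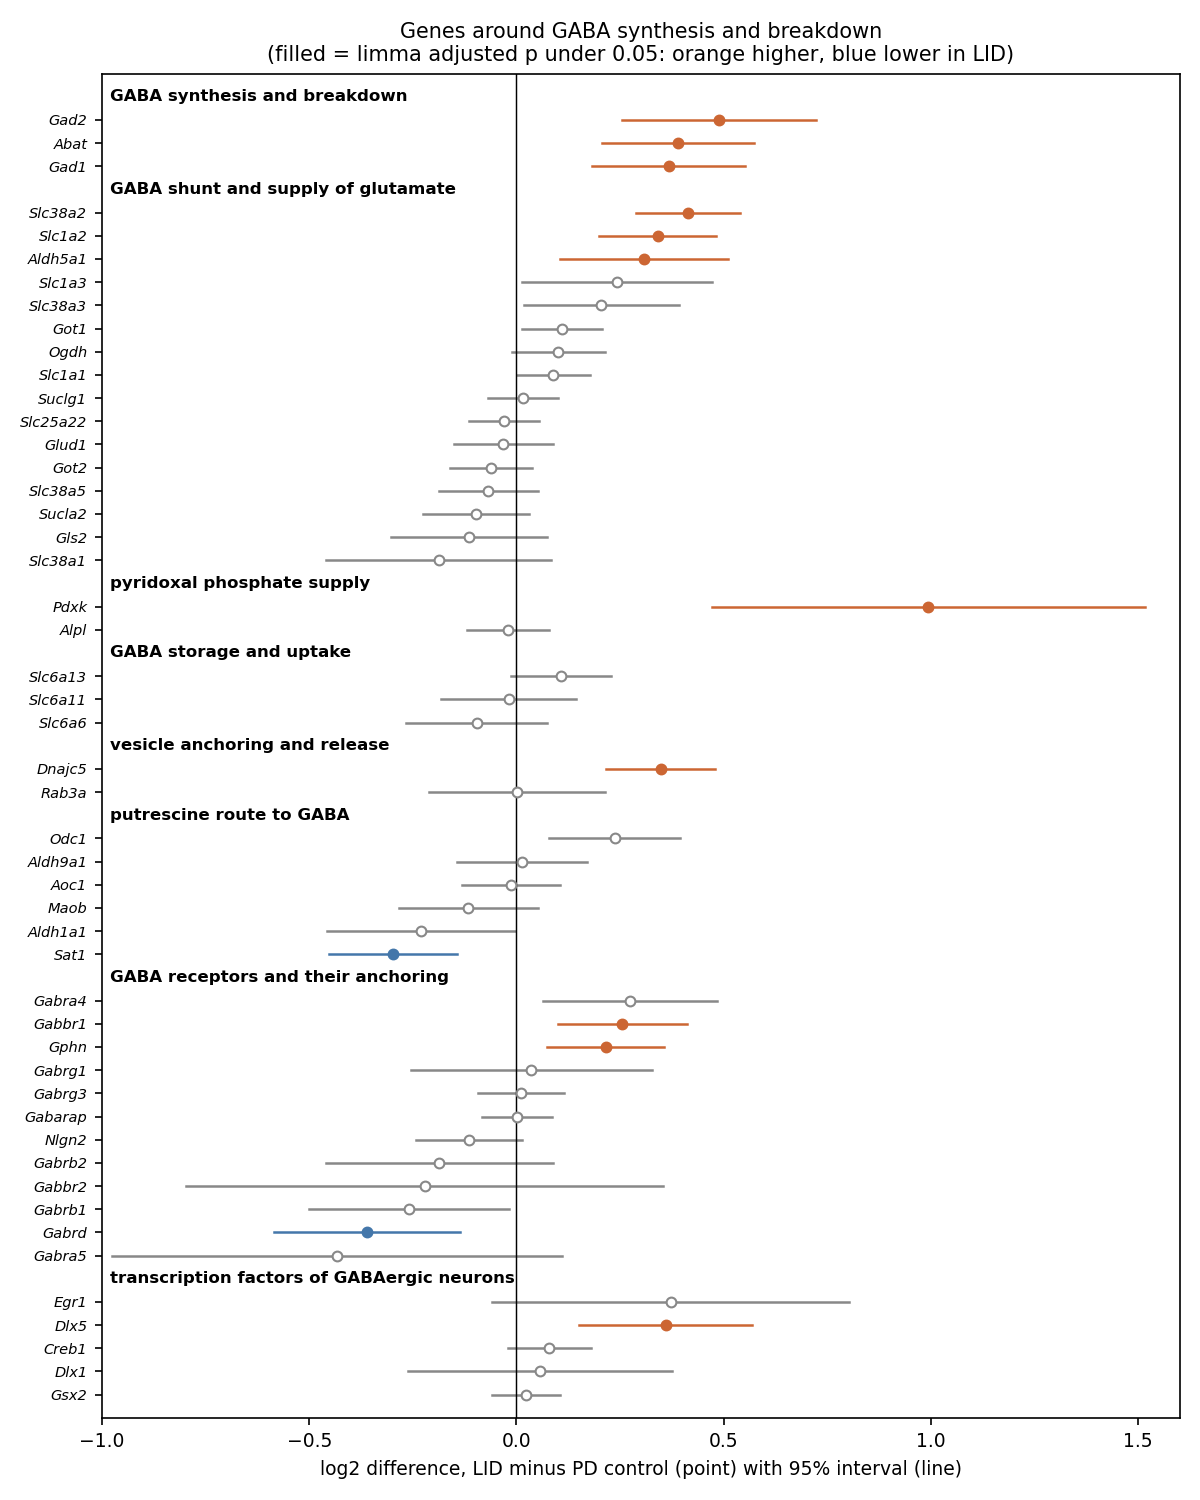
Log2 difference between LID and PD control (horizontal axis, point) with its 95% interval (line) for the 3 enzyme genes and the 46 measured genes around them, grouped by role. Filled points passed the limma threshold, and Pdxk at 0.99 has the largest difference while Gabrd and Sat1 lie below 0.

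The genes whose pattern over the arrays was most like each member were found from deviations from the group means, over 12 arrays and 9217 other named genes. The likeness is a Pearson coefficient given as a description, and the points share the arrays that stood apart. For Gad1 the highest were Ltb (0.91), Hif1a (0.91) and Pkm (0.89), and the lowest were Panx2 (-0.96), Immt (-0.90) and Hivep1 (-0.88). For Gad2 the highest were Rfk (0.89), Aldh1a1 (0.87) and Snx1 (0.87), and the lowest were Gja5 (-0.96), Eprs1 (-0.86) and Mcmbp (-0.86). For Abat the highest were Polr1h (0.94), Emc8 (0.93) and Smu1 (0.93), and the lowest were Gls2 (-0.94), Tgfb2 (-0.93) and Epha5 (-0.93). No gene was among the 3 highest or 3 lowest of more than 1 member.

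The likeness to 4 markers of the output pathways was read for each member, beside that rule. Gad1 had a likeness of 0.82 to Pdyn, whose peptide dynorphin marks direct-pathway neurons (rank 40 of 9217), or 0.77 over the 9 arrays without PD control replicates 1, 3 and 6. Its likeness to Penk, the enkephalin precursor of indirect-pathway neurons, was 0.69, or 0.20 over the 9 arrays. Abat had a likeness of 0.86 to Penk (rank 22), or 0.82 over the 9 arrays, and of 0.44 to Pdyn, or 0.47. Gad2 had values of 0.21 to Pdyn and 0.35 to Penk, or -0.30 and -0.93 over the 9 arrays. For the dopamine receptor genes Drd1 and Drd2 the values were 0.78 and 0.67 for Gad1 (0.54 and 0.39 over the 9 arrays), 0.59 and 0.68 for Abat (0.60 and 0.73), and 0.27 and 0.22 for Gad2 (-0.50 and -0.39). Whether these coefficients differ between the members was not tested.

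**Figure D5:**
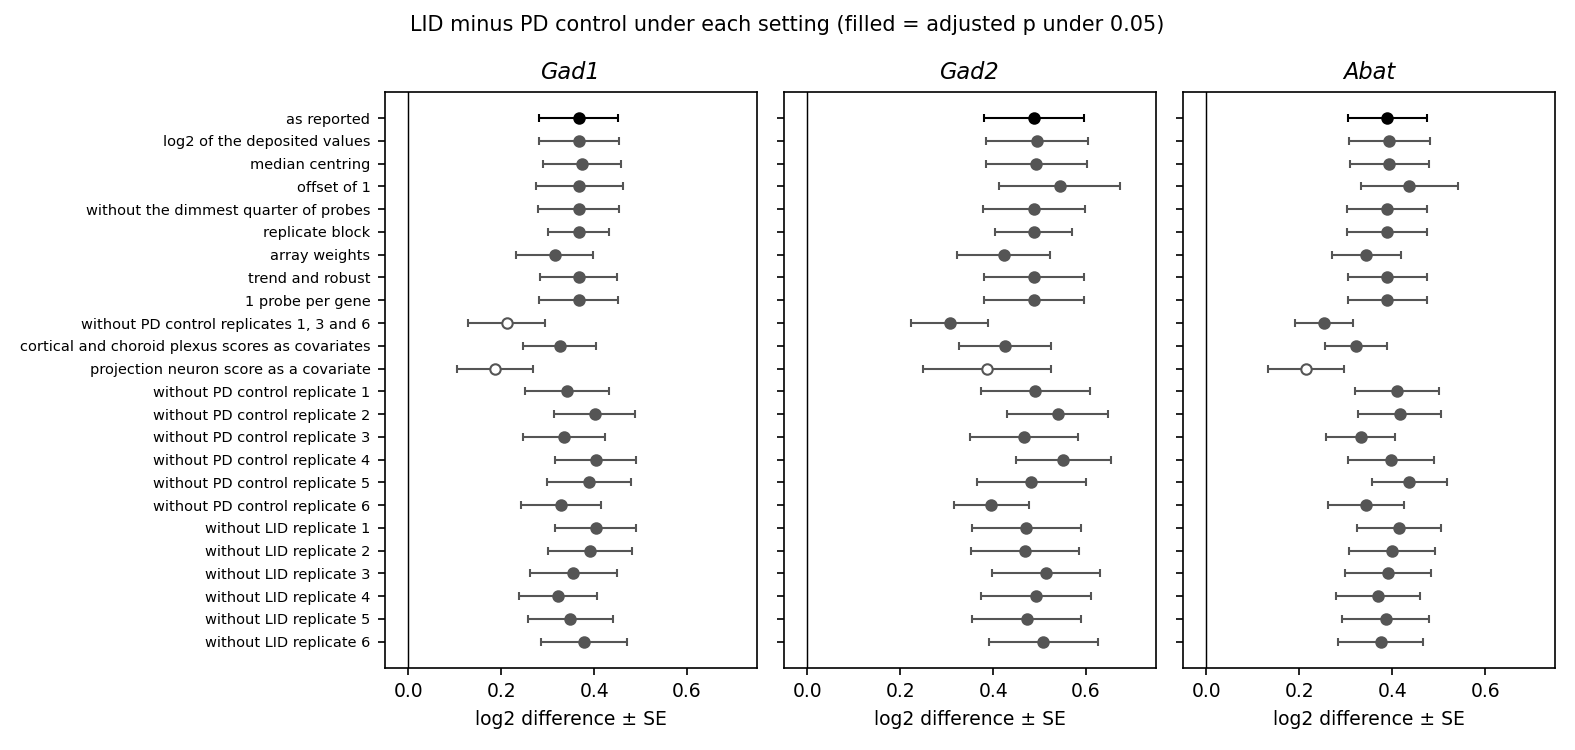
Log2 difference between LID and PD control with its SE (horizontal axis) for each gene under each setting (vertical axis), with filled points where the adjusted p was under 0.05. All points lie above 0, and the lowest Gad1 and Abat differences, 0.19 and 0.21, are those with the projection neuron score as a covariate.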

How the data were processed

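The deposited values are probe intensities on a linear scale, which the authors had already made comparable between arrays, since the upper quartile (425.689) and the maximum coincide on all 12 arrays. The labels name Illumina labelling with biotin, and the sources used here name neither software nor background correction. Detection p-values were not used here. On the deposited intensities, limma 3.58.1 (R 4.3.3) was used for normexp background correction (offset 50), quantile normalization and log2 transformation. Differences of dim genes are therefore understated. A model holding only the group was fitted to each probe (lmFit, eBayes), and p-values were adjusted (Benjamini-Hochberg) over 13375 probes with a threshold of 0.05. Symbols came from GEO's platform annotation (9434 probes with 1 symbol, 3941 with none, 0 with several), and a gene was read by its probe with the highest mean. The members and gene lists were chosen with earlier results of these data known. Named genes were the 3 members, measured pathway genes, some of the called markers and the 3 most and least alike genes of each member. Ppp1r1b, Penk, Drd2, Pvalb, Sst, Npy and Lamp5 fall outside this rule and were chosen after their values were seen. The fit was tested on simulated data. No 2 arrays held the same values at all probes. Alternatives covered background, scaling, offset, dim probes, replicate block, array weights, variance model, covariates and arrays left out.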

Additional observations from a re-analysis of the deposited data

Results flagged for a closer look

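Of 26 groups of 6 arrays examined for a lone extreme value (the 3 enzyme genes and the 10 pathway genes past the threshold, in each group), 1 held one, about the number that chance gives at 1 in 20. Aldh5a1, the gene of the enzyme after GABA transaminase in the shunt, was at 7.47 in PD control replicate 3 while the rest of its group lay at 7.94 to 8.16. The same array was the lowest of PD control for Abat (8.38). Without it the difference of Aldh5a1 was 0.21 ± 0.05 (limma adjusted p = 0.0222).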

How the results depend on the processing

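Gad1, Gad2 and Abat were higher in LID under each of the 11 alternatives and in each of the 12 fits without 1 array. The differences in the latter ran from 0.32 to 0.40 for Gad1, 0.40 to 0.55 for Gad2 and 0.33 to 0.44 for Abat, all past the threshold. The call of Gad1 was lost without PD control replicates 1, 3 and 6 (0.21), and those of Gad1 (0.19), Gad2 (0.39) and Abat (0.21) were lost with the projection neuron score as a covariate. The fit without the 3 arrays has fewer samples, and the SE of Gad1 was 0.082 there, against 0.086 with all arrays. These arrays held the 3 lowest Gad1 values, so leaving them out had to lower its difference. Why the call of Gad1 was lost was not tested. Without the 3 arrays 1059 probes passed and with the score 633, against 1606. The pathway genes past the threshold numbered 10, or 6 with an offset of 1 and 5 to 9 without 1 array. Over all probes 1311 passed with an offset of 1 and 1112 to 1556 without 1 array. Without the 3 arrays they numbered 5, and of the 10 only Slc38a2, Slc1a2 and Dnajc5 were among them. With the projection neuron score they numbered 3, and of the 10 only Slc38a2 was among them. With the replicate number as a block Gad1, Gad2 and Abat kept their calls (0.37, 0.49 and 0.39, limma adjusted p = 0.0143, 0.0123 and 0.0274), and 1332 probes passed. Same-numbered arrays did not deviate together (correlations from -0.292 to 0.482, above 0.1 in 2 of 6 pairs, and 2 of 6 LID arrays closest to their own number), so the numbers were not taken as pairs. The comparisons of the members' changes stayed on the same side of the threshold under their 5 alternatives. Signal over background could not be judged.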
